A study of Mus musculus with 12 samples.

Results

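Voltage-gated calcium channels are built around a single large pore-forming protein, the alpha1 subunit, and the 8 genes described here encode the alpha1 subunits of the L, P/Q, N, R and T type channels: Cacna1c, Cacna1d, Cacna1a, Cacna1b, Cacna1e, Cacna1g, Cacna1h and Cacna1i. They were taken by symbol from the 24060 genes that the files of the series list, and each was present once. The files hold 10 pore-forming genes in all; the other two, Cacna1s and Cacna1f, encode the alpha1 subunits known from skeletal muscle and retina.

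RNA was sequenced from dorsal root ganglia, where sensory neurons have their cell bodies, in adult male C57BL/6J mice of 9 to 10 weeks. There were 4 groups of 3 libraries: naive mice, and mice at day 1, day 3 and day 7 after spared nerve injury (SNI), a model of neuropathic pain in which the common peroneal and tibial nerves are tied off and cut and the sural branch of the sciatic nerve is kept. The design text states the purpose as relating the time course of expression to behavioural sensitivity after the injury. The injured groups are set against naive animals, so effects of anaesthesia, surgery and nerve injury cannot be told apart, and the part of each ganglion whose axons run in the sural branch was not cut. The labels do not say which ganglia were taken, how many mice went into a library, or whether replicates came from separate mice, so p-values reflect how these libraries spread and nothing wider.

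The alpha1 subunit holds the ion pore, the voltage sensor and the binding sites of most channel drugs. L type channels open at strong depolarisation and link activity to contraction, secretion and gene expression. N and P/Q type channels sit at presynaptic terminals and supply the calcium that triggers transmitter release; N type channels carry much of the calcium current of sensory neurons and are the target of the analgesic ziconotide. R type channels also take part in release and in excitability, and T type channels open near rest and favour burst firing, with the Cacna1h product known from mechanosensory and nociceptive neurons.

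Library sizes recovered from the values ran from 13626893 to 17952865 reads, and pairs of libraries of a group correlated at 0.953 to 0.976 (Pearson r across genes on the log2 scale). Levels are in RPKM, a gene's reads over its length and the library's size, as the authors deposited them. Of 10 sensory neuron markers 9 were in the files and all 9 were tested; their summed level was 1134 to 1510 RPKM in naive libraries, 917 to 1466 at day 1, 1024 to 1394 at day 3 and 746 to 1293 at day 7, where replicate 1 was the lowest. Atf3, a transcription factor that injured sensory neurons induce, averaged 2.36 ± 0.03 RPKM in naive ganglia, 69.4 ± 10.7 at day 1, 90.9 ± 11.7 at day 3 and 55.8 ± 13.2 at day 7 (SD, n = 3 each). The summed level of 5 skeletal muscle markers was 24.4 RPKM in naive replicate 1 and 17.8 RPKM in day 7 replicate 2, against at most 4.26 RPKM in the other libraries. Without these 2 libraries no member passed the test in any comparison either.

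The 8 genes spanned a wide range of levels and stood in the same order in nearly every library. Over the 12 libraries the mean was 83.5 RPKM for Cacna1b, 36.1 for Cacna1a, 28.5 for Cacna1c, 6.52 for Cacna1h, 5.76 for Cacna1e, 4.17 for Cacna1d, 0.814 for Cacna1i and 0.245 for Cacna1g. Each gene was above the next in 12 of 12 libraries, apart from Cacna1h, which was above Cacna1e in 11 of 12. RPKM is per length, so setting these levels side by side rests on the gene lengths used. The deposited values imply 12697 bases for Cacna1e, 9252 for Cacna1d and 9776 for Cacna1b. All annotated GENCODE exons, merged, come to 25228, 12621 and 9942 bases. The order under other lengths was not tested. The ratio of Cacna1b to Cacna1a within a library was 1.88 to 2.82, and that of Cacna1a to Cacna1c was 1.05 to 1.51. Ranges over all libraries overlapped between Cacna1a and Cacna1c, between Cacna1h and Cacna1e, between Cacna1e and Cacna1d and between Cacna1i and Cacna1g, so these neighbours were ordered within libraries but not apart from the spread between libraries. Among detected genes, the naive mean of Cacna1b lay at percentile 98.0, that of Cacna1a at 93.1 and that of Cacna1i at 37.8.

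**Figure D1:**
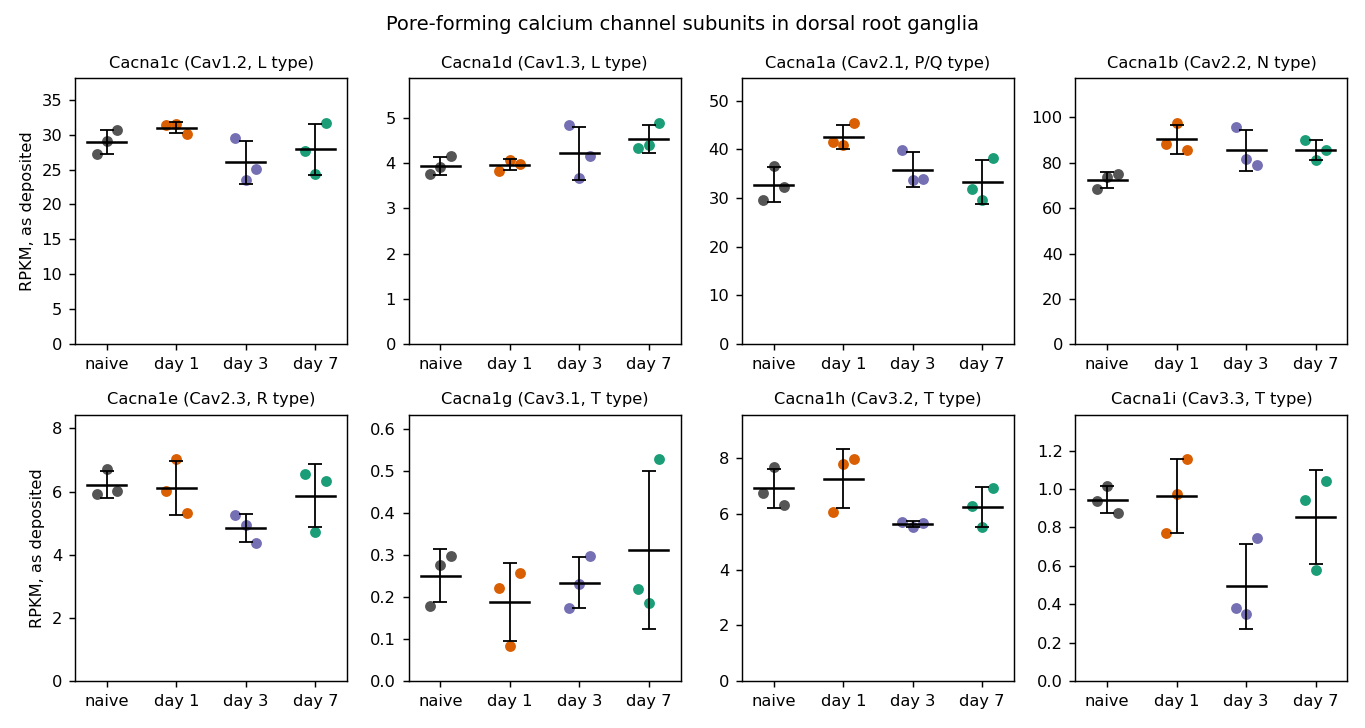
Level of each gene in RPKM as deposited (vertical axis, from 0, on its own scale per panel) in the naive, day 1, day 3 and day 7 libraries; points are single libraries, and bars are the mean and SD of 3. Cacna1b lies highest, between 68.2 and 97.7 RPKM, and Cacna1g lowest, between 0.0833 and 0.527 RPKM.

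Upstream sequences are shown for the most abundant member and for the least abundant one with an entry, Cacna1i. Promoter entries from RefSeq (GRCm38.p6) were found for 5 of the 8 genes, namely Cacna1b, Cacna1c, Cacna1d, Cacna1e and Cacna1i; Cacna1a, Cacna1g and Cacna1h are named only. Below are the 250 bases before the annotated start of Cacna1b (chr2:24763153-24763402, minus strand) and of Cacna1i (chr15:80286988-80287237, plus strand), 5′ to 3′, with matches to the GC box GGGCGG, searched on both strands, in capitals.
Cacna1b: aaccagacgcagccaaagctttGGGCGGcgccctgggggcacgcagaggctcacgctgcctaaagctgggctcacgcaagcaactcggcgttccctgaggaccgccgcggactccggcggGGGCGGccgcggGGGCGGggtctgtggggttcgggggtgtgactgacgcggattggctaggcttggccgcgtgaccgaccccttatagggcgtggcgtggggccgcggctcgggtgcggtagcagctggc
Cacna1i: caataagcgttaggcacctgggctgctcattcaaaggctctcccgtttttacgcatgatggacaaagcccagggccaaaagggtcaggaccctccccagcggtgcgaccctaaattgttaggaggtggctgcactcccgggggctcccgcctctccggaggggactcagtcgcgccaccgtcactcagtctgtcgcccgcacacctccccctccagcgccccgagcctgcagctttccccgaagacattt
The Cacna1b stretch had 72% G and C and 29 CG dinucleotides, and it held 3 GC boxes, none of them overlapping. The Cacna1i stretch had 62.4% G and C and 16 CG dinucleotides, and it held no GC box. The other entries did not follow the order of the levels. The 3 entries of Cacna1c had 50.4, 82.8 and 51.6% G and C with 0, 6 and 0 GC boxes, the 2 of Cacna1d had 86.4 and 39.6% with 5 and 0, and the entry of Cacna1e had 52% with 0. The median over all 32851 promoter entries was 52.4% G and C, and 32.7% of entries held a GC box in the same window. Neither stretch held TGACGTCA (the cyclic AMP response element, in 1.55% of entries), TGANTCA (the AP-1 site, in 6.75%) or TATAAA (in 12.4%), on either strand. These matches describe letters in this window only.

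Differences between groups were tested with limma on the log2(RPKM + 0.5) scale over all genes that reached RPKM 1 in 3 or more libraries, which left 14195 genes and 7 of the 8 members. Cacna1g was below RPKM 1 in every library and was not tested in that fit. Cacna1i reached RPKM 1 in exactly 3 libraries, naive replicate 2, day 1 replicate 3 and day 7 replicate 3. None of the 7 tested members passed an adjusted p of 0.05 against naive at any day, in limma's test with Benjamini-Hochberg adjustment over the whole table. That was 0 of 7 at day 1, where 3.47% of all tested genes passed, 0 of 7 at day 3, where 5.64% passed, and 0 of 7 at day 7, where 2.91% passed. At an unadjusted p under 0.05 there were 2 members at day 1 (Cacna1a and Cacna1b), 1 at day 3 (Cacna1i) and 0 at day 7, against 14.9%, 17.8% and 12.9% of all tested genes. With voom, which weights log2 counts by their precision, on reads recovered from the RPKM steps, 1 member was called, Cacna1i at day 3. Over the whole table voom called 632, 1050 and 553 genes at days 1, 3 and 7. On log2(RPKM + 0.5) these were 492, 800 and 413. The 95% intervals of the 7 fold changes lay between 0.704-fold and 1.60-fold at day 1, between 0.465-fold and 1.43-fold at day 3 and between 0.637-fold and 1.43-fold at day 7. The lower bound at each day was that of Cacna1i. On the log2(RPKM + 0.5) scale a gene this low shows less than its full change, so these intervals do not bound its full change. In ganglia, which hold many cell types, fewer cells of a type and less RNA per cell cannot be told apart.

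**Figure D2:**
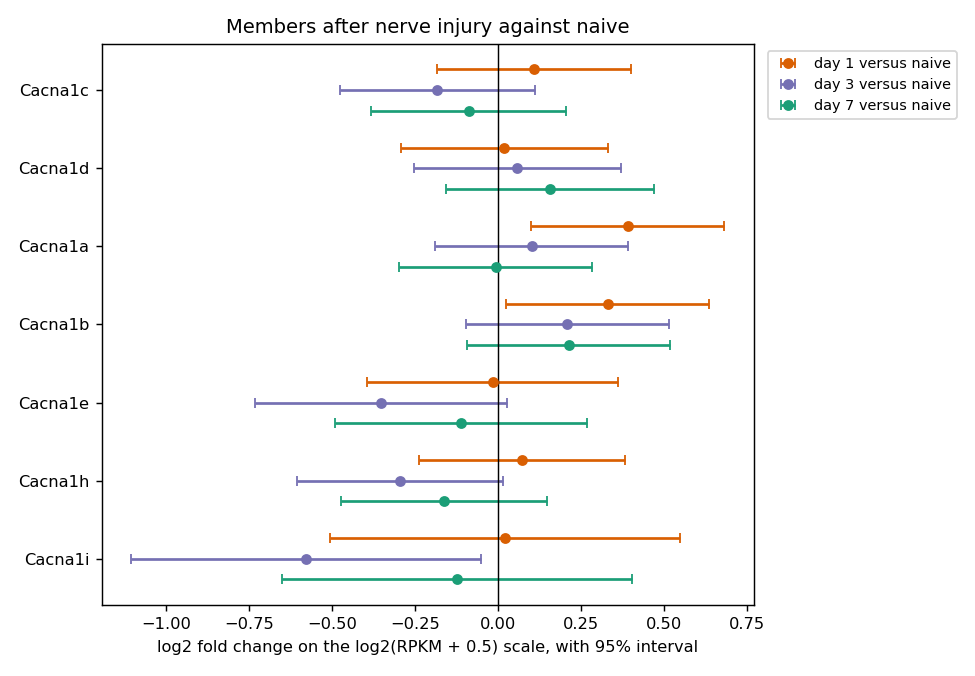
Fold change of each tested gene at day 1, day 3 and day 7 against naive on the log2(RPKM + 0.5) scale (horizontal axis), with limma's unadjusted 95% interval. The intervals that leave out 0 are those of Cacna1a and Cacna1b at day 1 and of Cacna1i at day 3, and none of these had an adjusted p under 0.05.

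Cacna1b (chr2:24603887-24763152, minus strand, protein coding) encodes Cav2.2, the pore of the N type channel, and was the most abundant member in each of the 12 libraries. It measured 88.1, 97.7 and 85.4 RPKM at day 1, 95.7, 81.7 and 79.1 at day 3 and 90.1, 81.1 and 85.4 at day 7, against 68.2, 73.9 and 75.1 RPKM in naive libraries. Every injured library was above every naive library in the deposited values; after scaling, the groups still did not overlap at days 1 and 7 but overlapped at day 3. Against naive its log2 fold change was 0.33 ± 0.14 at day 1 (SE; limma's adjusted p = 0.287), 0.21 ± 0.14 at day 3 (adjusted p = 0.513) and 0.21 ± 0.14 at day 7 (adjusted p = 0.618).

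Cacna1a (chr8:84388440-84640246, plus strand, protein coding) encodes Cav2.1, the pore of the P/Q type channel. It measured 41.4, 40.9 and 45.5 RPKM at day 1, against 29.5, 36.5 and 32.3 RPKM in naive libraries, and the groups did not overlap. This was a log2 fold change of 0.39 ± 0.14 (SE), a 1.31-fold higher level with a 95% interval of 1.07 to 1.60, and its limma adjusted p of 0.167 was the smallest of any member at day 1. At day 3 the libraries measured 39.9, 33.6 and 34.0 RPKM and at day 7 they measured 31.9, 29.6 and 38.3, and both days overlapped naive. Against naive the log2 fold change was 0.10 ± 0.14 at day 3 and -0.01 ± 0.14 at day 7 (SE; limma's adjusted p = 0.774 and 0.993), and the sign at day 7 turned when the libraries were not scaled. In the test of any difference among the 4 groups, Cacna1a had the smallest adjusted p of the members, 0.258. That test passed 0 of 7 members, against 4.82% of all tested genes (684 genes). Voom on recovered reads called 1 member, Cacna1i (adjusted p = 0.0473), and 937 genes over the whole table. The Cacna1a locus overlaps the antisense gene Gm16183, for which no value was used here.

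Cacna1c (chr6:118587240-119196418, minus strand, protein coding) encodes Cav1.2, the more abundant of both L type members. It measured 31.3, 31.5 and 30.1 RPKM at day 1, 29.5, 23.5 and 25.1 at day 3 and 27.6, 24.3 and 31.7 at day 7, against 27.2, 29.1 and 30.6 RPKM in naive libraries. Each injured group overlapped naive. Its log2 fold changes were 0.11, -0.18 and -0.09 at days 1, 3 and 7, each with an SE of 0.14, and the smallest adjusted p was 0.554 (limma).

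Cacna1d (chr14:30039939-30491455, minus strand, protein coding) encodes Cav1.3, an L type pore that opens at less depolarised voltages than Cav1.2. It measured 3.84, 4.07 and 3.99 RPKM at day 1, 4.84, 3.68 and 4.15 at day 3 and 4.33, 4.41 and 4.89 at day 7, against 3.76, 3.92 and 4.15 RPKM in naive libraries. The day 7 libraries lay above the naive ones as deposited but overlapped them after scaling. Log2 fold changes were 0.02, 0.06 and 0.16 at days 1, 3 and 7, each with an SE of 0.15 (limma's adjusted p from 0.764 to 0.973). Cacna1d overlaps Chdh, a choline oxidation gene on the opposite strand at 3.24 to 5.46 RPKM, and since strand use is not stated, reads of these genes cannot be told apart where they overlap.

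Cacna1e (chr1:154390731-154884501, minus strand, protein coding) encodes Cav2.3, the pore of the R type channel. It measured 6.01, 7.02 and 5.31 RPKM at day 1, 5.26, 4.93 and 4.37 at day 3 and 6.57, 4.72 and 6.32 at day 7, against 5.93, 6.71 and 6.00 RPKM in naive libraries. All day 3 libraries lay below all naive libraries, while days 1 and 7 overlapped naive. At day 3 the log2 fold change was -0.35 ± 0.18 (SE; 95% interval -0.73 to 0.03; limma's adjusted p = 0.323). It was -0.02 at day 1 and -0.11 at day 7.

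Cacna1h (chr17:25374285-25433783, minus strand, protein coding) encodes Cav3.2, the most abundant T type member here. It measured 6.06, 7.80 and 7.96 RPKM at day 1, 5.70, 5.53 and 5.69 at day 3 and 6.27, 5.54 and 6.95 at day 7, against 6.75, 7.70 and 6.33 RPKM in naive libraries. The day 3 libraries were close together and all below naive. The log2 fold change at day 3 was -0.30 ± 0.14 (SE; 95% interval -0.61 to 0.02; limma's adjusted p = 0.312), with 0.07 at day 1 and -0.16 at day 7. Tpsg1, a mast cell tryptase gene that overlaps Cacna1h on the opposite strand, was between 0 and 0.196 RPKM in all libraries.

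Cacna1i (chr15:80287238-80398279, plus strand, protein coding) encodes Cav3.3, a T type pore with slow kinetics. It measured 0.382, 0.349 and 0.746 RPKM at day 3, against 0.940, 1.02 and 0.875 RPKM in naive libraries; these were 60, 54 and 111 reads at day 3 and 132, 167 and 130 reads in naive libraries. Each day 3 library was below each naive library. Day 1 libraries measured 0.769, 0.973 and 1.15 RPKM and day 7 libraries 0.942, 0.578 and 1.04 RPKM, and both days overlapped naive. The ratio of the mean RPKM at day 3 to naive was 0.522. On the log2(RPKM + 0.5) scale, where a gene near the pseudocount shows less than its full change, the log2 fold change was -0.58 ± 0.25 (SE; 95% interval -1.11 to -0.05; limma's adjusted p = 0.225); with a pseudocount of 0.1 it was -0.90 ± 0.37. With voom on recovered reads it was -1.05 ± 0.29 (SE), and the adjusted p was 0.0239. Leaving out 1 library at a time from the voom fit, a check added after the result was seen, kept the gene in 9 fits, of which 6 passed; fold changes ran from -1.38 to -0.82 and adjusted p from 0.011 to 0.178. The call was lost without naive replicate 3 (adjusted p = 0.0552), day 3 replicate 1 (adjusted p = 0.101) or day 3 replicate 2 (adjusted p = 0.178).

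**Figure D3:**
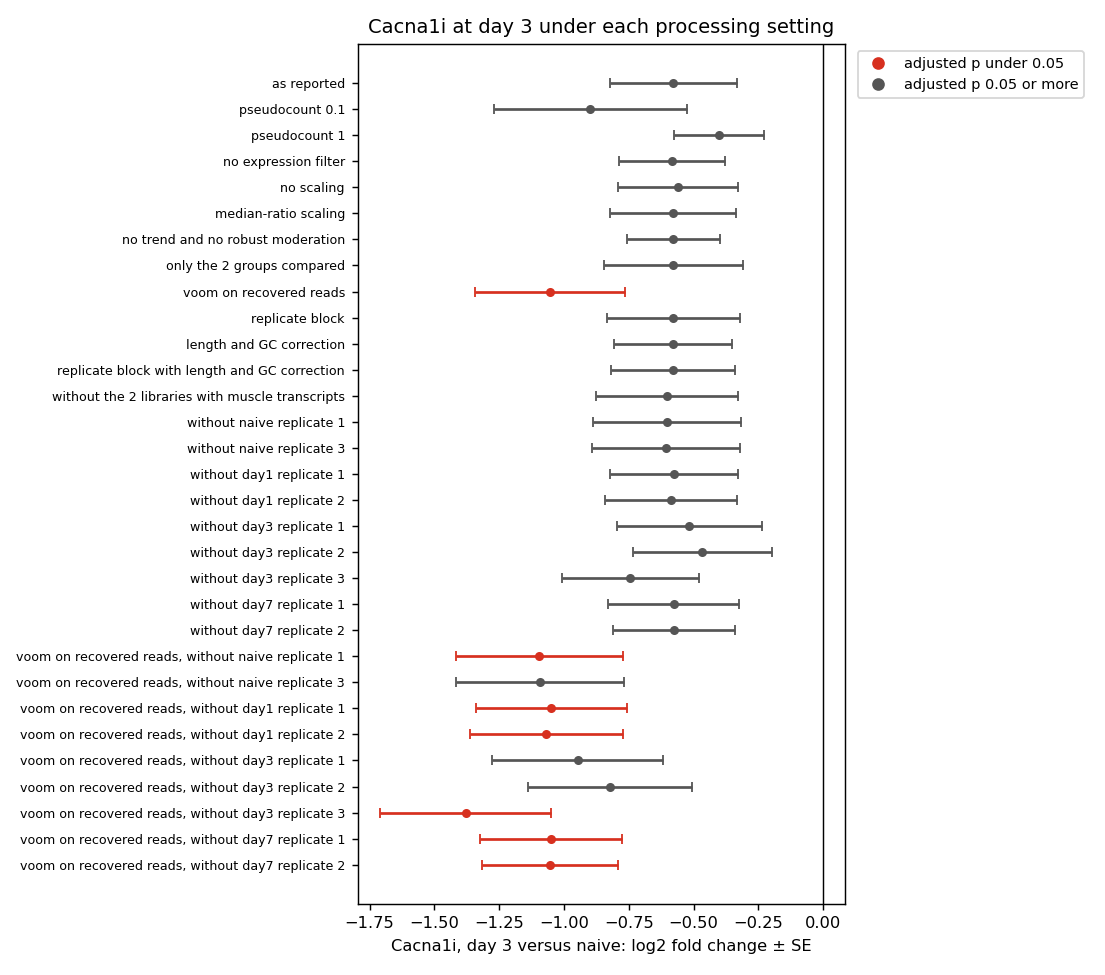
Log2 fold change of Cacna1i at day 3 against naive, with its SE, under each processing setting (one line per setting); red points have an adjusted p under 0.05. Every setting placed day 3 below naive, the log2(RPKM + 0.5) fit as reported gave -0.58, and red points occur with voom on the recovered reads only.

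Cacna1g (chr11:94408391-94474198, minus strand, protein coding) encodes Cav3.1, the T type pore best known from the thalamus. It measured 0.221, 0.0833 and 0.257 RPKM at day 1, 0.174, 0.231 and 0.296 at day 3 and 0.218, 0.186 and 0.527 at day 7, against 0.178, 0.275 and 0.296 RPKM in naive libraries. These levels rested on 10 to 59 reads per library, and each injured group overlapped naive. In a fit with no filter on level its log2 fold changes were -0.14, -0.05 and 0.07 at days 1, 3 and 7 (SE 0.16 each), with limma's adjusted p from 0.837 to 0.963. Over the 12 libraries both pore-forming genes outside the list had lower means than Cacna1g: Cacna1s had 3 to 27 reads per library and Cacna1f had 4 to 34, and both stayed below RPKM 1 and were not tested. Cacna1f measured 0.318, 0.302 and 0.369 RPKM at day 3, against 0.195, 0.147 and 0.271 RPKM in naive libraries. At day 1 it measured 0.0413, 0.226 and 0.138 RPKM and at day 7 it measured 0.194, 0.251 and 0.145. Both of these days overlapped naive, and no difference was tested at so few reads.

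In the deposited values, groups of 3 libraries did not overlap for 2 members higher at day 1 than naive (Cacna1a and Cacna1b), where 11.0% of all tested genes lay wholly higher, and for 0 lower (11.7%). At day 3 it was 1 member higher (Cacna1b, with 13.8% of tested genes) and 3 lower (Cacna1e, Cacna1h and Cacna1i, with 12.7%). At day 7 it was 2 higher (Cacna1b and Cacna1d, with 11.0%) and 0 lower (7.13%). The median log2 fold change of the 7 tested members was 0.07 at day 1, -0.18 at day 3 and -0.09 at day 7, while over all tested genes it was within 0.01 of 0 at each day. The 3 comparisons share the naive libraries.

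Differences between days were tested in the same model. None of the 7 members passed at day 3 against day 1, where 0.507% of all tested genes passed, at day 7 against day 1, where 0.965% passed, or at day 7 against day 3, where 0.0% passed. An unadjusted p under 0.05 was reached by 2 members at day 3 against day 1, where 9.48% of all tested genes reached it. It was reached by 1 member at day 7 against day 1 (10.4%) and by 0 at day 7 against day 3 (5.07%). Voom on recovered reads called 0 members in each, and 146, 240 and 0 genes over the whole table. The background shares rest on 72 genes at day 3 against day 1 and 137 at day 7 against day 1, and these counts ran from 12 to 106 and from 53 to 117 when 1 library was left out. The 5 members Cacna1a, Cacna1c, Cacna1e, Cacna1h and Cacna1i lay wholly lower at day 3 than day 1 as deposited, against 6.65% of tested genes. After scaling, 3 of these still did, Cacna1a, Cacna1h and Cacna1i. The share of 6.65% is for deposited values, and no such share was computed after scaling. No member lay wholly higher at day 3 than at day 1, against 8.64% of tested genes. The log2 fold change of day 3 against day 1 was -0.37 ± 0.14 for Cacna1h (adjusted p = 0.417) and -0.60 ± 0.25 for Cacna1i (SE; adjusted p = 0.437, limma). Cacna1a measured 31.9, 29.6 and 38.3 RPKM at day 7, all below the 41.4, 40.9 and 45.5 RPKM of day 1, with a log2 fold change of -0.40 ± 0.14 (SE; limma's adjusted p = 0.266). At day 7 against day 1, Cacna1a lay wholly lower (5.05% of tested genes) and Cacna1d wholly higher as deposited (8.91%), though not after scaling. At day 7 against day 3 no member lay wholly higher (5.9%) or lower (3.4%).

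Set as shares of the summed RPKM of the 8 genes, which describe composition and were not tested, N type transcripts made up the largest part in every library. Their share was 47.5 ± 0.96% in naive ganglia, 49.5 ± 1.92% at day 1, 52.5 ± 0.87% at day 3 and 52.1 ± 2.88% at day 7 (SD, n = 3 each). L type transcripts (Cacna1c and Cacna1d) made up 21.6 ± 0.80% in naive ganglia, 19.2 ± 0.55% at day 1, 18.6 ± 0.75% at day 3 and 19.7 ± 1.06% at day 7. The N type share at day 3 and day 7 lay above that of every naive library, where the highest was 48.2%. P/Q type transcripts made up 21.5 ± 1.29% in naive ganglia and 23.4 ± 1.89%, 22.0 ± 0.13% and 20.2 ± 1.48% at days 1, 3 and 7. The R type share was 4.08 ± 0.19% in naive ganglia and 3.34 ± 0.37%, 2.99 ± 0.20% and 3.55 ± 0.39% at days 1, 3 and 7. The T type share (Cacna1g, Cacna1h and Cacna1i) was 5.33 ± 0.45% in naive ganglia and 4.61 ± 0.63%, 3.94 ± 0.47% and 4.49 ± 0.34% at those days. Both small classes had their lowest mean share at day 3. The summed level itself was 152 ± 8.76 RPKM in naive ganglia, 183 ± 6.63 at day 1, 163 ± 16.1 at day 3 and 165 ± 12.6 at day 7.

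**Figure D4:**
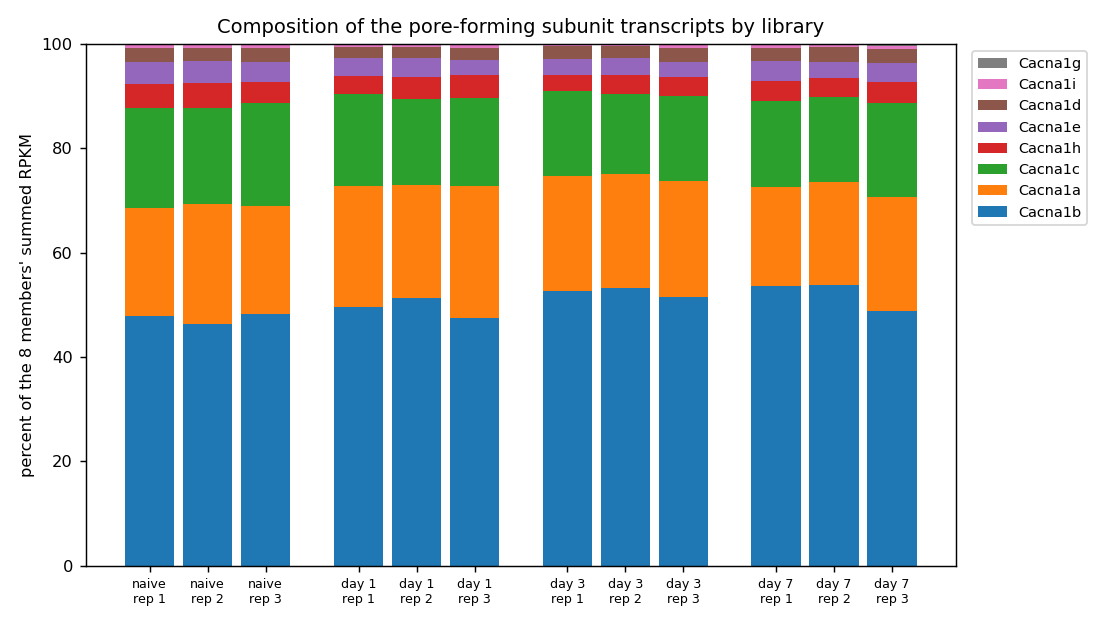
Share of each gene in the summed RPKM of the 8 genes (vertical axis, percent) in each of the 12 libraries. Cacna1b takes 46.4 to 53.9% of the sum, and Cacna1b, Cacna1a and Cacna1c together fill most of each bar.

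The members share great length: the gene lengths implied by the deposited values were 7929 to 14774 bases, and 95.1% of tested genes were shorter than the shortest member, against a median of 2838 bases. There were 684 other tested genes of at least that length. Their median log2 deviation from each gene's mean over the 12 libraries was below 0 in naive replicate 1, day 1 replicate 3, day 3 replicates 2 and 3 and day 7 replicates 2 and 3, and above 0 in the other 6 libraries, with a range of -0.15 to 0.26. The median deviation of the 9 sensory neuron markers had the opposite sign in each of the 12 libraries, though it was near 0 in day 3 replicate 3 (0.0076) and day 7 replicate 2 (0.012). Day 7 replicate 1 stood furthest out, at 0.26 for the long genes and -0.47 for the neuron markers, with 0.18 for the members. Such differences were not limited to neuron markers. Summed Schwann cell markers were 1470, 996 and 1120 RPKM in naive replicates 1 to 3 and 822, 1464 and 1541 at day 7. Summed satellite glia markers were 464, 319 and 336 RPKM in naive replicates and 281, 478 and 413 at day 7. The median deviation of the 7 tested members was -0.24 in day 3 replicate 2 and -0.11 in day 3 replicate 3, where that of the long genes was -0.14 and -0.11. The long genes' own median log2 fold change was -0.01 at day 1, -0.10 at day 3 and -0.03 at day 7. In a fit corrected for length and GC content, the day 3 log2 fold change was -0.29 ± 0.13 for Cacna1e and -0.29 ± 0.13 for Cacna1h, against -0.35 ± 0.18 and -0.30 ± 0.14 without the correction, and it was -0.58 for Cacna1i in both (SE after each ±). At day 1 the corrected log2 fold changes were smaller for the members with an unadjusted p under 0.05. They were 0.29 ± 0.096 for Cacna1a and 0.25 ± 0.10 for Cacna1b (SE; limma's adjusted p = 0.109 and 0.227). Without the correction they were 0.39 ± 0.14 and 0.33 ± 0.14. The part of the libraries' long-gene deviations in the members' values was not tested beyond this correction.

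**Figure D5:**
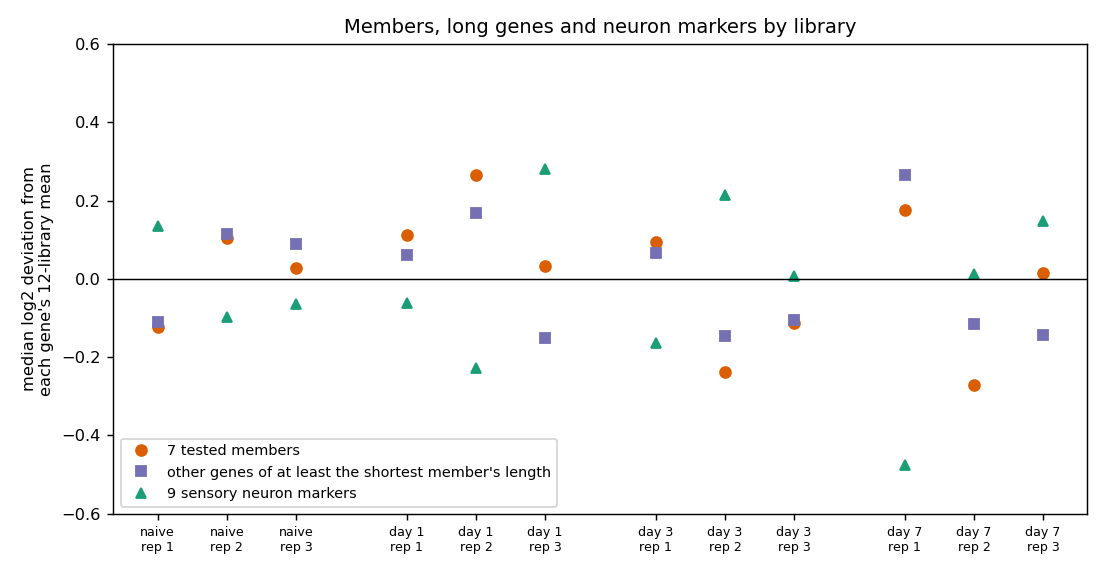
Median log2 deviation from each gene's 12-library mean (vertical axis) in each library, for the 7 tested members (circles), the 684 other long genes (squares) and 9 sensory neuron markers (triangles). The long genes and the neuron markers lie on opposite sides of 0 in each library, and the members lie with the long genes in 10 of the 12.

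The spread between libraries of a group, as a pooled SD on the log2 scale, was 0.17 for Cacna1a, 0.17 for Cacna1b, 0.17 for Cacna1c, 0.13 for Cacna1d, 0.22 for Cacna1e, 0.16 for Cacna1h and 0.23 for Cacna1i. The median over all tested genes was 0.21. Counting error alone would give an SD of 0.0127 for Cacna1b, 0.0214 for Cacna1a, 0.0177 for Cacna1c, 0.0426 for Cacna1e, 0.0496 for Cacna1h, 0.0585 for Cacna1d and 0.129 for Cacna1i. These counting values are for log2 reads without the pseudocount. For Cacna1i, whose level is near the pseudocount, the SDs are therefore on unlike scales.

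Alpha1 subunits of the L, P/Q, N and R type channels work with auxiliary beta and alpha2delta subunits, which set how many channels reach the membrane and how they gate. Genes named as gamma subunits were listed with these. Over all tested genes, 2.65% rose and 0.817% fell at day 1, 3.73% rose and 1.9% fell at day 3, and 2.3% rose and 0.606% fell at day 7. Of 16 auxiliary genes 10 were tested; 1 rose and 2 fell at day 3, 1 rose at day 7 and none passed at day 1 in limma's test. Cacna2d1, an alpha2delta subunit bound by gabapentin, averaged 303 ± 23.9 RPKM at day 3 and 264 ± 47.4 at day 7. In naive ganglia it averaged 107 ± 4.37 RPKM (SD, n = 3 each). It rose by 1.46 ± 0.19 on the log2 scale at day 3 (SE; limma's adjusted p = 0.000232) and by 1.25 ± 0.19 at day 7 (adjusted p = 0.00127). Cacna2d2, another alpha2delta subunit, fell to 7.36 ± 0.48 RPKM at day 3, against 10.9 ± 0.82 in naive ganglia, a log2 fold change of -0.56 (limma's adjusted p = 0.0345). Cacng2, known as stargazin and as an AMPA receptor partner, fell to 3.41 ± 0.47 RPKM at day 3, against 5.80 ± 1.24 in naive ganglia (log2 fold change -0.70, limma's adjusted p = 0.0443). The auxiliary list's median log2 fold change was -0.18 at day 1, -0.08 at day 3 and -0.22 at day 7.

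Among 15 partners at the release site, all tested, 1 rose at day 1 and at day 3, and none fell at any day. That gene was Erc2, an active zone scaffold, at 57.6 ± 3.92 RPKM at day 1 and 58.5 ± 1.91 at day 3, against 38.4 ± 1.55 RPKM in naive ganglia (log2 fold changes 0.59 and 0.57; limma's adjusted p = 0.0109 and 0.00854). Of 15 small GTPase and other regulators 11 were tested; 1 rose at each day and 1 fell at day 3. Stac, an adaptor that binds L type channels, averaged 32.2 ± 5.0 RPKM at day 1, 37.2 ± 3.62 at day 3 and 32.2 ± 3.65 at day 7, against 19.0 ± 1.37 in naive ganglia. Its log2 fold changes were 0.75, 0.92 and 0.72 (limma's adjusted p = 0.00222, 0.000266 and 0.00317). Nedd4l, a ubiquitin ligase of membrane channels, fell by 0.49 on the log2 scale at day 3 (limma's adjusted p = 0.0215).

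The other lists follow calcium after entry. Of 21 genes for calcium release from stores and removal 19 were tested; 1 rose at day 1, and 1 fell at day 3 and at day 7. Ryr3, a ryanodine receptor of the endoplasmic reticulum, was at 9.66 ± 0.77 RPKM at day 1, against 5.65 ± 0.43 in naive ganglia (log2 fold change 0.73, limma's adjusted p = 0.0222). Atp2b3, a plasma membrane calcium pump, fell to 18.5 ± 0.50 RPKM at day 3 and 17.8 ± 1.38 at day 7, against 29.1 ± 2.73 in naive ganglia (log2 fold changes -0.66 and -0.72; limma's adjusted p = 0.00847 and 0.00743). Of 8 calcium-activated potassium channel genes, all tested, none passed at day 1, 2 fell at day 3 and 1 at day 7. Kcnmb1, a BK channel beta subunit, fell by 0.61 and by 0.71 on the log2 scale at days 3 and 7 (limma's adjusted p = 0.0159 and 0.00913), and Kcnn2, an SK channel pore, fell by 0.64 at day 3 (adjusted p = 0.0232).

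Of 15 calcium-dependent kinases and phosphatases 14 were tested; 2 rose at day 1, 1 at day 3 and 1 at day 7, and none fell. Camk1, a calmodulin-dependent kinase, averaged 10.8 ± 2.13 RPKM at day 1, 12.8 ± 2.70 at day 3 and 8.83 ± 1.84 at day 7, against 3.66 ± 0.28 in naive ganglia, with limma's adjusted p = 0.000155, 2.58e-05 and 0.00111. Camkk2, a kinase that activates it, was at 3.35 ± 0.50 RPKM at day 1, against 1.86 ± 0.36 in naive ganglia. Its log2 fold change was 0.72 (limma's adjusted p = 0.0395). The median log2 fold change of each of the 6 lists lay between -0.24 and 0.06 at every day. The summed level of 4 macrophage markers in the same libraries was 4.95 to 6.30 RPKM at day 1, 8.67 to 10.6 at day 3 and 9.50 to 14.3 at day 7, against 4.50 to 4.95 RPKM in naive libraries; 2 of the 4 rose at day 3 and 2 at day 7, and none was at 0 in any library; their part in the lists' values was not tested.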

How the data were processed

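RNA-seq of dorsal root ganglia gave 12 libraries, grouped by their titles. Per the labels' protocols, RNA was cleaned with DNase I treatment and amplified from an input of 500 pg, which can add spread between libraries; strand use is not given in the sources used here. Named without a role, per the submitters' processing notes, are bcl2fastq 2.17, HTSeq, STAR, limma, edgeR and the build mm10. The deposited values were read as RPKM: the values of a gene stepped by the worth of 1 read, so whole reads were recovered for 21590 of 21597 detected genes (99.97%, tolerance 0.05 reads). The length and GC check covered 95.3% of tested genes.

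Scaling of the libraries used a trimmed mean of log ratios (30% of ratios and 5% of levels trimmed, no weights). All 12 entered 1 limma 3.58.1 model (R 4.3.3) of 4 group means on log2(RPKM + 0.5), with variance trend, robust moderation and 8 residual degrees of freedom. Tests were two-sided, adjusted over 14195 genes at 0.05. An exact test of 3 against 3 libraries cannot go below 0.1. voom on the recovered reads was an alternative. The fit was also run on simulated data with planted changes larger than most of the members' fold changes. That run does not show whether changes as small as the members' would be found. None of the 12 pairs of libraries within a group agreed within sampling noise.

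The members and lists were chosen with earlier results of these data known. Named were all members, and from each list up to 6 genes with the smallest p over the 4 groups, of which those that passed a comparison are given. Genes with profiles like a member's were to be named only for members that passed the 4-group test on log2(RPKM + 0.5); none did. Gene coordinates are from GENCODE M21 (mm10), and promoters from RefSeq.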

Additional observations from a re-analysis of the deposited data

How the results depend on the processing

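Under other pseudocounts, filters, scalings, moderation, only the compared groups in the fit, a length and GC correction and leaving out each library in turn, no member was called in any comparison. With voom on recovered reads 1 member was called at day 3 and 1 in the test over the 4 groups, Cacna1i in both (0.0239 and 0.0473, adjusted p). Over the whole table that fit called 1050 genes at day 3 and 937 over the 4 groups. Leaving out each library from that voom fit gave 0 to 1 called member at day 3. Cacna1i reached RPKM 1 in 3 libraries, so it had no value when any of these was left out or with a filter at RPKM 5, which also removed Cacna1d. Signs that turned were all of small folds (log2). They were Cacna1a at day 7 without scaling (0.01975) and with the length and GC correction (0.024, with or without the block), and with that correction at day 1 Cacna1d (-0.0312), Cacna1h (-0.023) and Cacna1i (-0.074). Without the 2 libraries with muscle transcripts they were Cacna1d (-0.047) and Cacna1i (-0.00640) at day 1, Cacna1a (-0.00937) and Cacna1d (-0.00773) at day 3 and Cacna1i (0.016) at day 7. Leaving out 1 library gave, at day 1, ranges of -0.047 to 0.063 for Cacna1d, -0.15 to 0.11 for Cacna1e, -0.018 to 0.18 for Cacna1h and -0.015 to 0.11 for Cacna1i. At day 3 the ranges were -0.0095 to 0.20 for Cacna1a and -0.059 to 0.16 for Cacna1d, and at day 7 -0.12 to 0.092 for Cacna1a, -0.17 to 0.023 for Cacna1c, -0.26 to 0.045 for Cacna1e and -0.23 to 0.043 for Cacna1i. The cause was not tested. Genes called over the whole table at days 1, 3 and 7 numbered 492, 800 and 413, against 707, 1243 and 754 with the length and GC correction and 227 to 614, 451 to 1063 and 241 to 517 without 1 library. Day 7 gave 259 with only the compared groups, and days 1 and 7 gave 284 and 163 without the 2 muscle libraries. Over the 4 groups 684 genes were called, against 1095 with that correction, 405 without the muscle libraries and 377 to 916 without 1 library. At day 3 against day 1 and day 7 against day 1 the counts were 72 and 137, against 146 and 240 with voom, 136 and 215 with the length and GC correction, 47 and 91 with a filter at RPKM 5 and 30 and 89 with the block. Day 7 against day 1 gave 26 with only the compared groups and 57 without the muscle libraries, and day 7 against day 3 gave 0, or 4 with no filter. Replicate numbers did not pair the libraries: correlations of deviations between libraries of the same number ran from -0.34 to 0.23 in 18 pairs, and 2 of 12 libraries were most like their own number. A replicate block called 371, 650 and 320 genes at days 1, 3 and 7, and 0 members. Cacna1g rested on 10 to 59 reads per library.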
